A study of Mus musculus with 8 samples.

Results

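Smooth muscle genes of the tubule wall were followed in whole mouse testis by 10 genes, namely Acta2, Actg2, Myh11, Cnn1, Tagln, Des, Myl9, Smtn, Lmod1 and Tpm2. The members were all probes, other than controls, that carried one of these gene names on the array. There were 16 such probes among 41174, and 15 of them passed the filter, a signal well above background on 4 or more of the 8 arrays, as did 26948 probes in all. Only these were tested. Each of the 10 genes had at least 1 tested probe. The remaining probe, 1 of 5 for Acta2, was not well above background on any array. Where a gene had several probes, the brightest tested probe stood for the gene, and the other tested probes of the members are given beside it.

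RNA was prepared from total testes of male mice at postnatal day 8, with 4 samples of wild type and 4 of VRK1-deficient mice, each described as an independent biological replicate. The VRK1-deficient mice carried a gene trap, in which the reporter β-geo was inserted into intron 3 of Vrk1, the gene of the vaccinia-related kinase 1. The allele came from 1 embryonic stem cell clone and was bred with C57BL/6 mice, it was present in every cell of the animal, and it is hypomorphic. The paper reported some remaining full-length expression, shown as RNA. VRK1 protein in thymus, spleen and testis of these mice was below detection with its antibody. The question of the comparison was which transcripts differ in a testis with little VRK1. Vrk1 itself, measured by 2 probes on chromosome 12, was at 6.54% and 6.23% of the wild type signal, with log2 changes of -3.93 ± 0.15 (SE) and -4.00 ± 0.21 and adjusted p of 2.09e-05 and 0.000135 by limma, and it was low in every sample labelled VRK1-deficient.

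Peritubular myoid cells are flat contractile cells that wrap each seminiferous tubule. They lay down the basement membrane together with Sertoli cells and squeeze sperm and fluid along the tubule. They are recognized by the proteins of smooth muscle, in which an actin and myosin apparatus is set in motion by calcium and is trimmed by actin-binding proteins such as calponin, transgelin and smoothelin. Many genes of this apparatus are under the control of serum response factor, which binds a short A/T-rich DNA element named the CArG box.

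The probes of the contractile apparatus are 60 bases long, and a few are printed below to show what the spots hybridize to. For Acta2 and Tagln the printed sequence is that of a dimmer tested probe, not of the one that stands for the gene. They represent α-smooth muscle actin, the myosin heavy chain, transgelin, smoothelin and β-tropomyosin, 5′ to 3′, with no base set in capitals. They are the array's own designed sequences. The probe for Cnn1 lies on chromosome 9, from 21988172 to 21988231 on mouse build mm7, and is not printed.
Acta2: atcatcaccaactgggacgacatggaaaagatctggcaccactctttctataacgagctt
Myh11: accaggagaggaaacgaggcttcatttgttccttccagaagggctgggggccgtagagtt
Tagln: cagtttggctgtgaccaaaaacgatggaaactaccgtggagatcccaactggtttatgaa
Smtn: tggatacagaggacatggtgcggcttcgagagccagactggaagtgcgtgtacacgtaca
Tpm2: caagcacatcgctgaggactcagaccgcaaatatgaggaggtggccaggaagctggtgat

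The DNA upstream of the members was searched for the CArG box on both strands, in RefSeq promoters of build GRCm38.p6 that run from 250 bases before to 50 bases after a start. Promoters were given for 7 of the 10 members. An exact box was found in 1 of these 7, Myl9, against 1.63% of all 32851 promoters. Its first base lay 161 bases before the start. With 1 mismatch allowed among the inner letters, a setting chosen after the data were seen, 2 of 7 members held a match, against 9.98% of all promoters. The second gene was Acta2, with matches 84 and 34 bases before the start. The stretches of 30 bases around each match are printed below with the 10 matching letters in capitals. The upstream stretch of Cnn1, chr9:22099003-22099220 on the plus strand, is printed because Cnn1 was the only member to pass the test between genotypes. This stretch held no match under either setting. A match describes letters only, and its absence says only that these letters were not in this window.
Myl9, chr2:156775293-156775322, plus strand, exact box: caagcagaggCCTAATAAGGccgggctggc
Myl9, chr2:156775355-156775384, plus strand, 1 mismatch: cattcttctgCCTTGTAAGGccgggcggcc
Acta2, chr19:34255438-34255467, minus strand, 1 mismatch: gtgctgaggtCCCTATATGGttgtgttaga
Acta2, chr19:34255388-34255417, minus strand, 1 mismatch: cgtctttgctCCTTGTTTGGgaagcgagtg
Cnn1: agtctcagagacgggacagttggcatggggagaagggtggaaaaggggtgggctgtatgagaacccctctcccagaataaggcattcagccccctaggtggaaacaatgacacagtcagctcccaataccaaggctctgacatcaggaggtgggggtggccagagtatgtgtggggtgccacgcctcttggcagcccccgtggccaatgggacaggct

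The mean Cnn1 signal was lower in the VRK1-deficient testis. Cnn1 was the only 1 of the 10 genes to pass the test, by a narrow margin. The mean RNA signals for other contractile proteins, including both smooth muscle actins, the myosin heavy chain, transgelin and β-tropomyosin, differed between genotypes by less than 0.20 on the log2 scale. Smtn and Des had higher means in the VRK1-deficient testis, and neither passed the test. Across all tested probes, 3.64% were called, 1.97% as lower and 1.68% as higher, at an adjusted p under 0.05 by limma with Benjamini-Hochberg adjustment over all of them. The count of 1 in 10 members is too small to be set apart from that background.

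**Figure D1:**
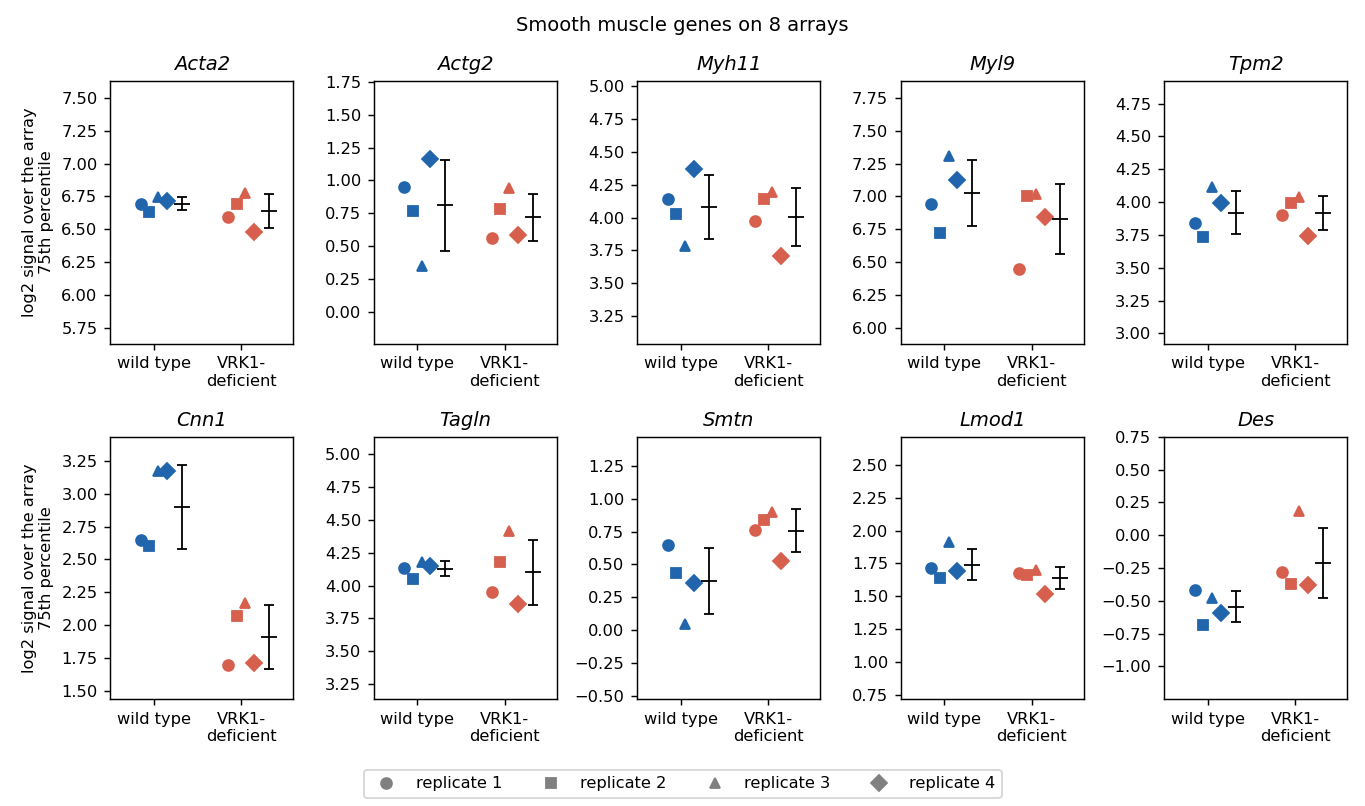
Log2 signal of the 10 smooth muscle genes on each array, relative to the 75th percentile of that array, for 4 wild type (blue) and 4 VRK1-deficient (red) samples; marker shape gives the replicate number, and the bar is the mean ± SD. Every panel spans 2 log2 units. The Cnn1 groups are wide apart, those of Des barely separate, and those of the other 8 genes overlap.

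All values below are log2 signals relative to the 75th percentile of the same array, so that 0 is a signal at that percentile. A log2 change is VRK1-deficient minus wild type. Signals of different probes are not compared with each other, since probes differ in how brightly they hybridize. In a bulk tissue, fewer cells of a type and less RNA per cell cannot be told apart.

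Cnn1 encodes calponin 1, an actin-binding protein that holds back the myosin ATPase. Its log2 signal was 2.65, 2.60, 3.17 and 3.18 in wild type replicates 1 to 4. It was 1.70, 2.07, 2.17 and 1.71 in VRK1-deficient replicates 1 to 4. The highest VRK1-deficient sample lay below the lowest wild type sample. Such a separation, with VRK1-deficient samples lower, was found for 7.28% of all tested probes. Mean signal fell from 2.90 ± 0.32 to 1.91 ± 0.25 (SD, n = 4 each), a log2 change of -0.99 ± 0.19 (SE) with an adjusted p of 0.0444 by limma. This corresponds to 50.4% of the wild type signal, with a 95% interval from 37.7% to 67.4%. A log2 change as low as this or lower was found in 2.8% of tested probes. Cnn1 had 1 probe, printed on 1 spot, so its change could not be compared with that of another probe.

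The lower Cnn1 signal was seen on both slides, but the call rested on a narrow margin. Slide 1, which held replicates 1 and 2 of both genotypes, gave a log2 change of -0.74, and slide 2, which held replicates 3 and 4, gave -1.24. The limma adjusted p was 0.498 on slide 1 and 0.0456 on slide 2. When 1 array was left out at a time, the log2 change stayed between -1.09 and -0.90. The adjusted p was 0.00692 without wild type replicate 1, and it lay between 0.0664 and 0.147 when the array left out was one of the other 7. Cnn1 was lower in all 4 VRK1-deficient samples, and its adjusted p fell on either side of the threshold depending on the arrays kept.

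**Figure D2:**
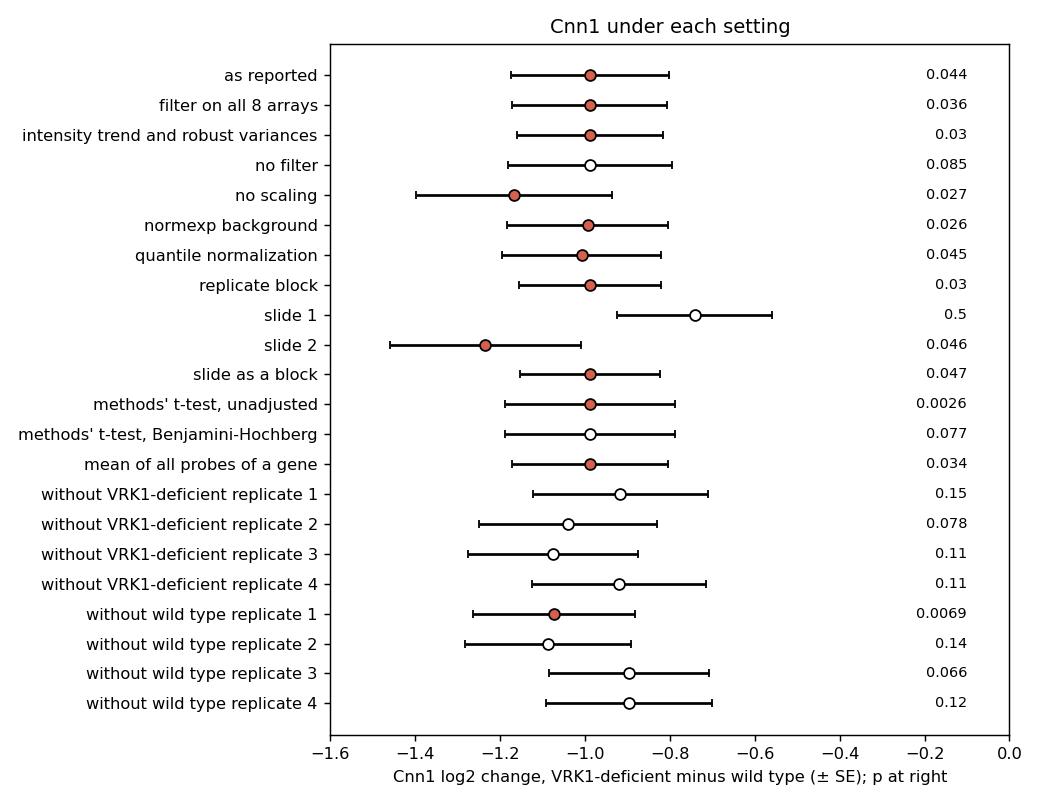
Log2 change of Cnn1 (VRK1-deficient minus wild type, ± SE) as reported and under each alternative, with the adjusted p at the right (the unadjusted p in the row so named); filled points have a p under 0.05. All changes lie between -1.24 and -0.74, whereas 10 alternatives leave the p at or above the threshold.

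The actins of smooth muscle did not pass the test. Acta2 encodes α-smooth muscle actin, the protein by which peritubular myoid cells are usually stained. The brightest Acta2 probe, printed on 10 spots, gave 6.70, 6.63, 6.75 and 6.71 in wild type replicates 1 to 4. It gave 6.59, 6.70, 6.78 and 6.48 in VRK1-deficient replicates 1 to 4. The VRK1-deficient samples lay on both sides of the wild type samples, and the log2 change was -0.06, with a 95% interval from -0.30 to 0.18 and an adjusted p of 0.733 by limma. The 3 other tested Acta2 probes, which lie at other positions, had log2 changes of 0.08, 0.04 and -0.01. Wild type replicate 3 was the lowest of the 8 arrays on the printed Acta2 probe, at 3.51 against 3.77 to 3.98 on the other 7, but not on the brightest one. Actg2, the γ-smooth muscle actin of the gut and urogenital tract, lay between 0.35 and 1.17 in wild type and between 0.56 and 0.94 in VRK1-deficient samples. The VRK1-deficient range of Actg2 lay within that of the wild type, with a log2 change of -0.09 and an adjusted p of 0.765.

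The motor and the thin filament gave the same kind of result. Myh11 encodes the smooth muscle myosin heavy chain, the most specific protein of mature smooth muscle. Its log2 signal was 4.14, 4.03, 3.78 and 4.37 in wild type replicates 1 to 4 and 3.97, 4.14, 4.20 and 3.71 in VRK1-deficient replicates 1 to 4. The groups overlapped, and the log2 change was -0.08 with a 95% interval from -0.44 to 0.29. Myl9, the regulatory light chain whose phosphorylation switches contraction on, lay between 6.72 and 7.31 in wild type and between 6.45 and 7.02 in VRK1-deficient samples. Its log2 change of -0.20 had a 95% interval from -0.59 to 0.20 and an adjusted p of 0.477, and VRK1-deficient replicate 1 was the lowest sample. Tpm2, the β-tropomyosin that lies along the actin filament, had the same mean of 3.92 in both genotypes. Its second probe gave a log2 change of 0.08, and both Tpm2 probes overlapped between genotypes.

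Tagln encodes transgelin (SM22α), an early marker of smooth muscle that binds actin. Its brightest probe lay between 4.05 and 4.18 in wild type and between 3.86 and 4.41 in VRK1-deficient samples. The spread was wider in VRK1-deficient samples (SD 0.25 against 0.0563), and the change between genotypes was -0.03. The second Tagln probe, the printed one, gave a change of 0.10. Lmod1 encodes leiomodin 1, which starts new actin filaments in smooth muscle. It lay between 1.64 and 1.92 in wild type and between 1.52 and 1.70 in VRK1-deficient samples, with a log2 change of -0.10, a 95% interval from -0.35 to 0.14 and an adjusted p of 0.553.

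Smtn and Des stood on the other side of 0. Smtn encodes smoothelin, which is bound to stress fibres of contractile smooth muscle. Its log2 signal was 0.65, 0.44, 0.05 and 0.36 in wild type replicates 1 to 4. It was 0.76, 0.84, 0.90 and 0.53 in VRK1-deficient replicates 1 to 4. The groups overlapped, since wild type replicate 1 lay above VRK1-deficient replicate 4. The log2 change of Smtn was 0.39 ± 0.15 (SE), with a 95% interval from 0.04 to 0.73 and an adjusted p of 0.137 by limma. Without wild type replicate 1 the change was 0.48 and the adjusted p was 0.0382.

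Des encodes desmin, the intermediate filament of muscle cells. Its log2 signal, averaged over 10 spots, was -0.42, -0.68, -0.48 and -0.59 in wild type replicates 1 to 4. It was -0.28, -0.37, 0.19 and -0.38 in VRK1-deficient replicates 1 to 4. The groups did not overlap, though the gap between them was 0.04, the distance from -0.42 to -0.38. The log2 change was 0.33 ± 0.15 (SE), with a 95% interval from -0.00483 to 0.67 and an adjusted p of 0.178. It was 0.20 without VRK1-deficient replicate 3, the highest sample. Groups that do not overlap were found for 16.7% of all tested probes (7.28% lower, 9.43% higher) and for 2 of the 10 members, Cnn1 and Des, which moved in opposite directions.

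**Figure D3:**
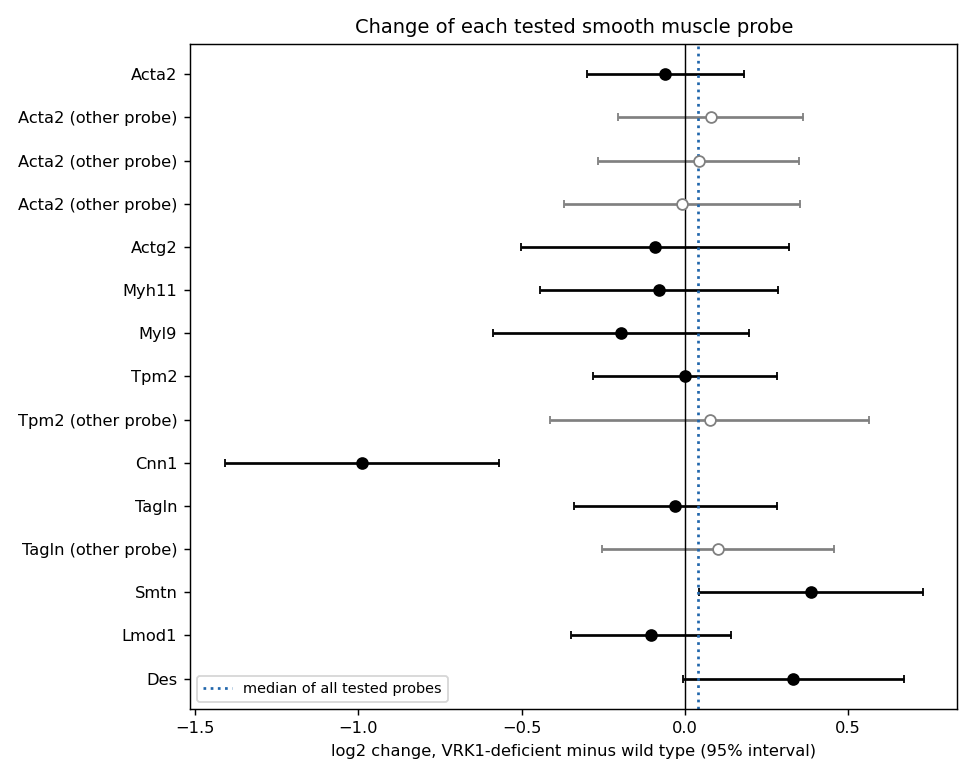
Log2 change, VRK1-deficient minus wild type, of all 15 tested probes of the 10 genes with 95% intervals from limma; filled points are the probes that stand for a gene, open points their other probes, and the dotted line is the median of all tested probes (0.04). The interval of Cnn1 lies wholly below 0, and all other probes lie between -0.20 and 0.39.

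Among the 10 genes, 3 had a positive and 7 a negative log2 change, whereas 54.5% of all tested probes had a positive one. The median change of the members was -0.07, beside 0.04 for all tested probes. Except for Cnn1, the 95% intervals of the members reached no further than -0.59, for Myl9, and 0.73, for Smtn, so a change of 2-fold lay outside the interval of each of the other 9 genes. The mean log2 signal over the 10 genes was 3.13, 2.99, 3.11 and 3.22 in wild type replicates 1 to 4. It was 2.93, 3.1, 3.24 and 2.86 in VRK1-deficient replicates 1 to 4. The genotypes overlapped, and the highest and the lowest of the 8 arrays were both VRK1-deficient. VRK1-deficient replicate 3 was above the 8-array median for 9 of the 10 genes and VRK1-deficient replicate 4 for 1 of them.

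Members varied together from array to array to unequal degrees. With each genotype centred on its own mean, Pearson's r over 8 arrays between a gene and the mean of the other 9 was 0.92 for Tagln and 0.91 for Acta2. It was lowest for Smtn, at 0.26, and lay between 0.38 and 0.68 for the other 7 genes. Spearman's coefficient was 0.86 for Tagln, 0.88 for Acta2 and 0.29 for Smtn. All points share the array and its scaling, so these are descriptions. Outside the members, the probe most like their mean over the 8 arrays was that of 1300014I06Rik (r = 0.96, Spearman's coefficient 0.98), followed by Col4a4 (r = 0.95, Spearman 0.90), NAP035212-1 (r = 0.95, Spearman 1.0), Supt3h (r = 0.95, Spearman 1.0) and Ttc3 (r = 0.94, Spearman 0.98), among 26930 probes ranked. Col4a4 encodes a chain of basement membrane collagen, and whether these probes share a function was not examined. They were picked for the highest r among 26930 probes over 8 arrays, so the size of r is not a test of a link to the members. None of these 5 probes was called between genotypes, with adjusted p from 0.282 to 0.619.

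Whether other contractile genes moved with Cnn1 was read from 22 further genes of the smooth muscle apparatus, of which 20 were tested. In this list 1 gene was called, Ppp1r14a, and none was called lower, beside 3.64% of all tested probes called. This count is too small to be set apart from that share. Ppp1r14a encodes CPI-17, a smooth muscle inhibitor of myosin phosphatase. Its log2 signal was 0.93, 0.88, 1.41 and 1.05 in wild type replicates 1 to 4 and 1.61, 1.73, 1.73 and 1.69 in VRK1-deficient replicates 1 to 4. All VRK1-deficient samples lay above all wild type samples, as for 9.43% of all tested probes. The log2 change of Ppp1r14a was 0.62 ± 0.13 (SE), with an adjusted p of 0.0478 by limma. The next in size were Pdlim3, a Z-disc and actin-anchoring protein, at 0.39 (adjusted p 0.087), and Itga8, an integrin subunit of smooth muscle, at -0.35 (0.148). Mylk, the myosin light chain kinase, and Flna, the actin crosslinker filamin A, had changes of 0.07 and 0.09. For Tpm1, α-tropomyosin, the brightest probe gave 0.28 (adjusted p 0.189) and another of its 3 probes gave 0.63 (0.0494), so the probes of this gene did not agree on a call. The other tested probes of Pdlim3 (0.39), Itga8 (-0.40), Mylk (0.02) and Flna (0.23 and 0.31) were not called. The median of the list was 0.08 and turned to -0.10 without scaling of the arrays. Kcnmb1 and Pln, both known in vascular and visceral smooth muscle, were not well above background on any array.

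Relatives of the members that are used by other cells had a positive change for 11 of 15 tested genes. The share of positive changes over all tested probes was 54.5%. Cnn2 and Cnn3, the calponins of non-muscle and many other cells, had log2 changes of 0.45 (adjusted p 0.071) and 0.45 (0.0757), with VRK1-deficient samples above all wild type samples in both. Neither passed the test. The largest absolute change in this list was that of Lmod3, a leiomodin of striated muscle, at -0.63 (0.0889). Tagln2, at 0.40, and vimentin, Vim, the intermediate filament of mesenchymal cells, at 0.33, also did not overlap between genotypes. None of the 15 tested relatives was called, while 4 had all VRK1-deficient samples above and 1 had all of them below the wild type samples, beside 9.43% and 7.28% of all tested probes. The median of the list was 0.27, and 0.09 without scaling of the arrays.

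Of 11 genes of serum response factor, its coactivators and kinases of contraction, 9 were tested and 1 was called. Among all tested probes 3.64% were called, and the count in this list is too small to be set apart from that share. Rock2, a kinase that sustains contraction, fell from -1.65 to -2.36, with -1.96, -1.62, -1.55 and -1.46 in wild type replicates 1 to 4 and -2.19, -2.13, -2.47 and -2.64 in VRK1-deficient replicates 1 to 4. Its groups did not overlap, as for 7.28% of all tested probes in this direction. The log2 change of Rock2 was -0.71 ± 0.16 (SE) with an adjusted p of 0.0493 by limma. Srf, the factor itself, had a change of -0.03 (adjusted p 0.878), and Myocd, myocardin, its coactivator in smooth muscle, had -0.27 (0.342) and -0.02 (0.968) on its 2 tested probes. Mef2c, a transcription factor of muscle, was at 0.69 (0.064) and Gata6, a factor of smooth muscle and gonadal somatic cells, was at 0.57 (0.171), with 0.62 and 0.19 on its other probes. The median of the list was -0.27, and -0.45 without scaling.

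The list of signals that reach the tubule wall had 20 genes, of which 19 were tested and 2 were called, both higher. Beside it, 3.64% of all tested probes were called, 1.68% as higher. The count of 2 is too small to be set apart from that background. Pdgfra, the receptor for platelet-derived growth factor on interstitial and peritubular precursors, was 2.35, 2.04, 2.18 and 2.15 in wild type replicates 1 to 4 and 2.80, 2.61, 2.68 and 2.62 in VRK1-deficient replicates 1 to 4. Avpr1a, the vasopressin receptor that mediates contraction, was -1.78, -2.09, -2.13 and -2.04 in wild type and -1.41, -1.51, -1.63 and -1.32 in VRK1-deficient replicates 1 to 4. Neither gene overlapped between genotypes, as for 9.43% of all tested probes in this direction. The log2 changes were 0.50 ± 0.11 and 0.54 ± 0.12 (SE), with adjusted p of 0.049 and 0.0496 by limma. A dimmer probe of Pdgfra had a change of 0.75 and was not called (0.114). Tgfb2, a transforming growth factor, was at 0.57 (0.0718), and Gli1, a target of hedgehog signals, was at 0.56 (0.122). The median of the list was 0.27, and it was 0.09 without scaling of the arrays. Of its 19 tested genes 15 were above 0, beside 54.5% of all tested probes.

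The calls outside the members were lost under more settings than that of Cnn1. With slide as a block, the limma adjusted p was 0.0546 for Rock2, 0.0531 for Pdgfra and 0.0542 for Avpr1a, and 0.0487 for Ppp1r14a. With replicate number as a block, Rock2 was at 0.0587 and the other 3 genes were called. Without scaling of the arrays none of the 4 was called, with changes of -0.89 (0.0692) for Rock2, 0.32 (0.42) for Pdgfra, 0.36 (0.361) for Avpr1a and 0.44 (0.235) for Ppp1r14a. Quantile normalization ended the calls of Rock2 (0.0522) and Pdgfra (0.0506), and the normexp background those of Rock2 (-0.46, 0.0619) and Avpr1a (0.0571). All 4 calls were lost, as was that of Cnn1, with no filter on dim probes, on slide 1 and by the methods' test after adjustment. On slide 2 Rock2 was called (0.0443), and Ppp1r14a (0.201), Pdgfra (0.156) and Avpr1a (0.129) were not. Without wild type replicate 1 all 4 genes were called, with limma adjusted p from 0.00719 to 0.0195. Each of the 7 remaining arrays was left out in turn, keeping wild type replicate 1. Rock2, Pdgfra and Avpr1a were then not called, with adjusted p between 0.0701 and 0.153, and Ppp1r14a was called in 1 of 7 cases, without wild type replicate 3.

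**Figure D4:**
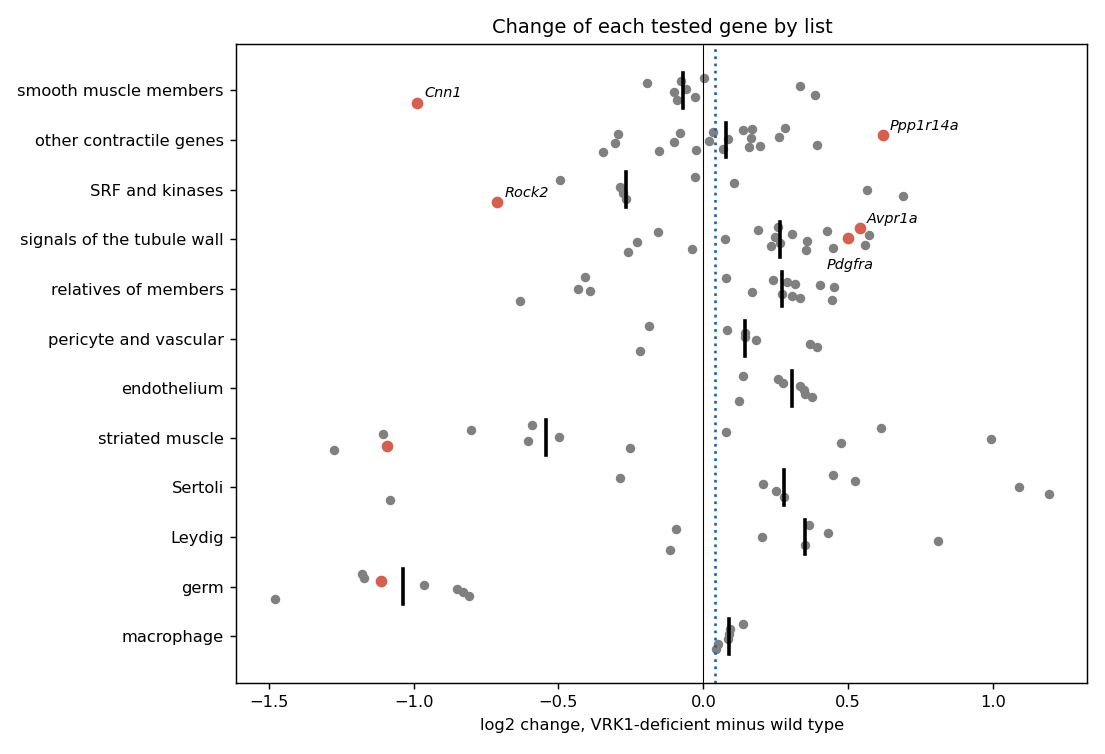
Log2 change, VRK1-deficient minus wild type, of each tested gene in 12 lists; black bars are list medians, red points genes with an adjusted p under 0.05, and the dotted line is the median of all tested probes (0.04). The members lie around -0.07 with Cnn1 apart at -0.99, and the germ cell list has the lowest median at -1.04.

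The label of peritubular myoid cells was read against markers of the other cells of a whole testis. Each of the 10 members exceeded background on all 8 arrays, and so did all 8 markers of pericytes and vascular smooth muscle, so the members do not stand for the tubule wall alone. The summed linear signal of these 8 markers, in units of the array's 75th percentile, ranged from 19.8 to 27.6 in wild type and from 20.7 to 23.5 in VRK1-deficient samples. Of the 8, none was called, with a median change of 0.14 that turned to -0.04 without scaling of the arrays. The 8 endothelial markers had 0 calls and a median of 0.30, or 0.13 without scaling, and their sums were from 6.11 to 7.75 in wild type and from 8.07 to 9.42 in VRK1-deficient samples. Striated muscle markers were also present, with sums from 3.93 to 6.31 in wild type and from 2.77 to 3.92 in VRK1-deficient samples and a median change of -0.54. Of these 12 genes 8 had a negative and 4 a positive change, the latter being Ckm at 0.99, with all VRK1-deficient samples higher, Myl1 at 0.61, Tnnt3 at 0.48 and Acta1 at 0.08. Of the 12, 1 was called, Ttn, titin, at -1.09 (adjusted p 0.0496), while its 2 other tested probes were at -0.05 (0.898) and -0.27 (0.579) and the normexp background gave -0.44 (0.111) for the called one. The 8 germ cell markers had a median of -1.04, sums from 46.6 to 142 in wild type and from 29.4 to 56.3 in VRK1-deficient samples, and 1 call (Tdrd1, -1.11, adjusted p 0.0499), whose second probe was at -0.80 (0.0987). The calls of Ttn and Tdrd1 were lost with slide as a block (0.0546 and 0.0516), with quantile normalization (0.0548 and 0.0506) and without any one of the same 7 arrays (from 0.0769 to 0.152). The Sertoli, Leydig and macrophage lists had 0 calls and medians of 0.28, 0.35 and 0.09. Without scaling of the arrays these medians were 0.10, 0.17 and -0.09. In the Sertoli list 7 genes had a positive and 2 a negative change, from -1.08 for Rhox5 to 1.19 for Amh. The Leydig list had 5 positive and 2 negative changes, and the macrophage list 6 and 0. Among all tested probes 54.5% had a positive change. The part of these shifts in the values of the smooth muscle genes was not tested. The counts of calls in these lists are too small to be set apart from the 3.64% called across all tested probes.

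On the 8 arrays, between 63.6% and 69.5% of spots were well above background. Wild type RNA was at positions 1 and 2 of both slides and VRK1-deficient RNA at positions 3 and 4, so position and genotype cannot be told apart. Wild type replicate 1 correlated with the 4 VRK1-deficient arrays at 0.987 to 0.99 over all tested probes and with the other wild type arrays at 0.97 to 0.986. Without it, 7641 probes were called, against 982 with all arrays.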

How the data were processed

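Total RNA from testes was labeled with Cy3 and hybridized to 1-color Agilent Whole Genome Mouse arrays, 1 sample per array. The authors extracted the signals with Agilent Feature Extraction 9.5.3.1, per the labels. The deposited values are background-subtracted linear intensity values with no scaling across arrays, and the deposited table held the same values. Probe positions are those of the files, on mm7, and any later normalization was not given in the sources used here.

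Outlier spots (58 to 134 on an array) were removed, 0 spots outside the controls were saturated, and spots of a probe were averaged. The log2 of the deposited processed signal minus that of the array's 75th percentile (641.7 to 848.4 in wild type, 547.8 to 744.5 in VRK1-deficient samples) was tested with limma 3.58.1 (lmFit, eBayes) in R 4.3.3. Tested probes were well above background on 4 or more arrays, with Benjamini-Hochberg adjustment over all of them and calls at an adjusted p under 0.05. Intervals are 95% intervals of the fit. The number of arrays limits the precision. The limma p-values weigh the difference between genotypes against the spread among 4 samples of each, with variances moderated over all tested probes. An adjusted p also depends on the p-values of the other tested probes. The fit was tested on simulated data.

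The members and lists were chosen with earlier results of these data known. Named genes are all members, each called gene of the other lists, the 3 largest changes of each smooth muscle list, defining markers of other cell types, the 5 probes most like the members' mean, and Vrk1. Mylk, Flna, Tpm1, Srf, Myocd, Tagln2, Vim, Kcnmb1 and Pln were added for their roles or after their values were seen. Lists were counted by gene and given no test of their own. The alternatives were other normalizations and filters, other rules for probes and names, slide or replicate number as a block, each slide alone, each array left out, an intensity trend with robust variances, and the methods' t-test. Promoters are RefSeq sequences of GRCm38.p6. Tables and figures were made with Python 3.11.15, pandas 2.3.3 and matplotlib 3.10.9.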

Additional observations from a re-analysis of the deposited data

Results flagged for a closer look

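Desmin in the VRK1-deficient samples was set apart by 1 array. VRK1-deficient replicate 3 had a Des log2 signal of 0.19 and the other 3 lay between -0.38 and -0.28, so that the gap to the nearest sample was 0.836 of the group's range, above Dixon's 95% critical value for 4 samples. Chance gives about 1 such group in 20, and this was 1 of the 20 groups examined. Without this array the Des change was 0.20 (adjusted p 0.347 by limma).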

How the results depend on the processing

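Des, Lmod1, Myl9, Smtn and Cnn1 kept their direction under all alternatives. Cnn1 was not called with no filter on dim probes, on slide 1, by the methods' t-test after Benjamini-Hochberg adjustment, or without any one of 7 arrays. The count of members called, 1 as reported, was 0 in the first 3 cases, 2 by the t-test at an unadjusted p (Cnn1 and Smtn), and between 0 and 2 with each array left out. The count of probes called, 982 as reported, was 1920 with an intensity trend and robust variances, 17 with no filter, 3 on slide 1, 626 with slide as a block, 7065 by the t-test unadjusted and 217 adjusted, and from 3 to 7641 with each array left out. Replicates that share a number had correlations of their deviations of 0.468, 0.073, 0.188 and -0.139. The partner of the same number was the closest for wild type replicates 1, 2 and 3, but among VRK1-deficient replicates only for replicate 1. VRK1-deficient replicate 2 was closest to wild type replicate 4 (0.248), and VRK1-deficient replicate 4 to wild type replicate 1 (0.195). Wild type replicate 4 and VRK1-deficient replicate 3 were closest to each other (0.272), so whether the numbers pair samples is not settled. With replicate number as a block 2280 probes were called, and Cnn1 had an adjusted p of 0.0296. The members' median was -0.25 without scaling, a setting that moved the median of all probes from 0.04 to -0.14, and with each array left out it ranged from -0.13 to 0.01. Signs turned only for Tpm2, Actg2, Tagln, Myh11 and Acta2, whose reported changes lay between -0.09 and 0.00. Tpm2 was at -0.18 without scaling, -0.053 with quantile normalization, -0.16 on slide 2 and from -0.061 to 0.065 with each array left out. Actg2 was at 0.0080 on slide 2 and reached 0.028 from -0.24 with each array left out, Tagln ranged from -0.13 to 0.052 and Myh11 from -0.18 to 0.020. With a gene's probes averaged, Acta2 was at 0.013 and Tagln at 0.036. Accessions named 9 of 10 members (not Myl9) and changed no call. Members with a CArG match numbered 1, and 2 with 1 mismatch allowed, a setting chosen after the data were seen. The cause of these differences was not tested.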
